A study of Saccharomyces cerevisiae with 10 samples.

Results

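The comparison described here is the step from 15 to 30 min of heat shock in budding yeast, Saccharomyces cerevisiae, a window proposed as the onset of adaptation. It sets the 30 min array of each strain against the 15 min array of the same strain, so 4 of the 10 arrays of the series belong to it, with 2 arrays a side. The arrays were chosen by their labels alone: at each time, 1 array holds total RNA of a strain with KIN82 deleted (delKIN82) and 1 holds total RNA of DBY8778, the only other strain named and taken here as the wild type. Every array has a common reference in its other channel, and the remaining 6 arrays, at 0, 5 and 60 min in the same strains, served to estimate the spread and to place the step in the time course. The labels used here do not give the makeup of the reference, the temperature or the medium, nor whether 1 culture or several supplied the samples of a strain. The DBY8778 titles name a heat shock numbered 2 and the deletion titles do not, so strain and time course cannot be told apart. KIN82, which encodes a protein kinase linked to the lipid flippases of the plasma membrane, was not analysed here, so the deletion was not checked on the arrays. The labels name neither its clone nor its parent strain.

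Yeast cells answer a sudden rise in temperature with a large and transient change in transcript levels. Heat shock factor Hsf1 drives genes for chaperones, which refold or dissolve damaged proteins, and the paired factors Msn2 and Msn4 drive a general stress programme that includes catalase, trehalose and glycogen enzymes. At the same time the genes for ribosomal proteins and for the nucleolar machinery that builds ribosomes, among the most heavily transcribed in growing cells, are turned down. As cells adapt, both arms relax toward a new steady level even though the heat persists.

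All values are log2 ratios over the reference, after each array was centred on its median, so 1 unit is a 2-fold difference. The base and direction of the deposited ratios are not stated. They were read as log2 of sample over reference, the likely direction, because 28 of 30 cytosolic chaperones in the deletion and 27 of 30 in the wild type stood higher at 15 than at 0 min. Between 5869 and 5949 genes had a value on each of the 4 arrays. No strain and time has a second array, so the p-values rest on the departures of the 10 arrays from additive strain and time effects, and they measure only the spread between these samples.

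By list medians, cytosolic chaperones, general stress genes and ribosome assembly genes were closer to their 0 min level at 30 than at 15 min. This held in the deletion and in the wild type, but not for assembly genes in the wild type after quantile normalization. A minority of the members of these lists passed the test. Chaperones in the wild type and storage carbohydrate genes in both strains had begun to fall before 15 min, by list medians. The Msn2 and Msn4 targets had not. Of 5705 genes tested, 77 (1.35%) differed at a limma adjusted p under 0.05. Of these, 48 (0.841% of all tested) were higher and 29 (0.508%) lower at 30 min. These shares are the background for each count of called list members below. Of the 48 rises, 40 were on a gene list, 16 of them as genes of ribosome assembly, and of the 29 falls 10 were on a list, 4 of them as targets of Msn2 and Msn4, where 23.0% of all genes tested were on a list. All 77 had the same sign in both strains, where 29.7% of all genes were above 0 and 29.1% below 0 in both. The test favours such genes, because disagreement between the strains widens its spread, so the shared sign is not separate evidence. The differences of the 77 genes ran in size between 1.21 and 2.69 on the log2 scale, with a median of 1.80. For 73 of them the 30 min arrays did not overlap the 15 min arrays, where 18.3% of all genes lay apart upward and 17.8% downward. A change shared by most transcripts would not be seen after centring, and in bulk RNA a change in every cell and a change in a share of the cells cannot be told apart.

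**Figure D1:**
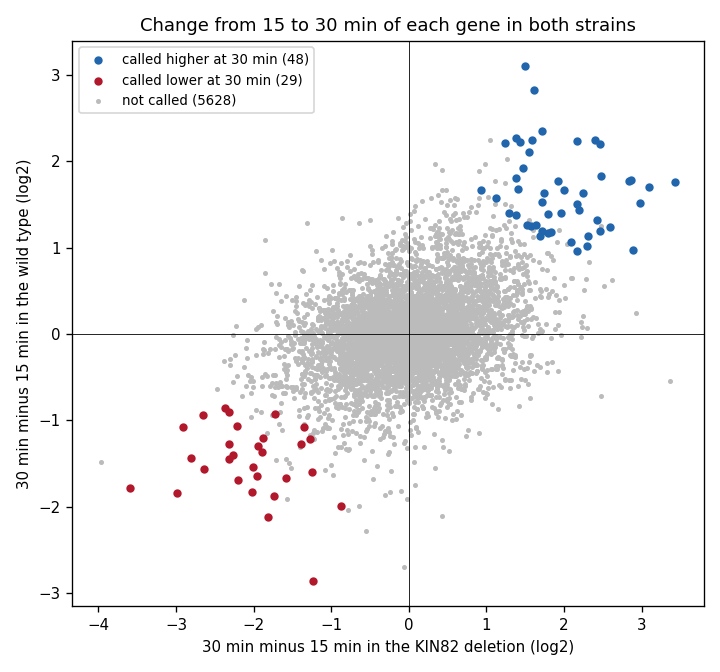
Change from 15 to 30 min of each of the 5705 genes tested, in log2 units, in the deletion (x axis) and in the wild type (y axis). Blue points are the 48 genes called higher and red points the 29 called lower at 30 min. All called genes lie in the 2 quadrants where the strains share a sign, which the test favours.

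The number of called genes depended on the scaling and on single arrays. The arrays at 30 min had the narrower spread, with SDs over genes of 0.873 in the deletion and 0.982 in the wild type at 30 min, against 1.14 in the deletion and 1.27 in the wild type at 15 min. When arrays were scaled to equal spread or quantile normalized, which removes that difference, no gene was called by limma, although 444 genes under equal spread and 254 under quantile normalization had an unadjusted p under 0.05, against 915 under median centring. Of the 77 genes, 60 were at least 2-fold under equal spread and 37 under quantile normalization. Leaving out the deletion array at 30 min left 0 calls, leaving out the deletion array at 15 min left 1, leaving out the wild-type array at 30 min left 17 and leaving out the wild-type array at 15 min gave 156. Without either 60 min array the count was 23, and without either 5 min array it was 226. The 0 and 60 min deletion arrays carry the word repeat in their titles, unlike the 4 arrays compared here, and without both the count was 42. Each call below therefore holds for the fit on all 10 arrays, scaled by their medians.

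The 77 called genes were then set beside their earlier change from 0 to 15 min. In 69 of them the step from 15 to 30 min ran against a change of at least 2-fold from 0 to 15 min: 48 had been lower and 21 higher at 15 min. No called gene went further in the direction it had taken by 15 min when that change was at least 2-fold. Of the other 8, all lower at 30 min, 7 had changed less than 2-fold by 15 min and 1 had no 0 min value. Because these intervals share the 15 min arrays, an error on those arrays alone would give opposite signs, so genes were also picked without them. The 141 genes at least 2-fold higher at 5 than at 0 min in both strains had a median 30 min minus 15 min difference of -0.78 in the deletion and -0.75 in the wild type, with 126 below 0 in the deletion and 131 in the wild type. The 160 genes at least 2-fold lower at 5 min had medians of 1.07 in the deletion and 0.75 in the wild type, with 153 above 0 in the deletion and 152 in the wild type. Over all genes tested the medians were 0.0 in the deletion and 0.01 in the wild type. Genes picked at 15 min in 1 strain and read in the other moved the same way with smaller medians: -0.45 in the deletion and -0.27 in the wild type for genes picked as higher, and 0.57 in the deletion and 0.49 in the wild type for genes picked as lower. All picked genes were read only on median-centred arrays, where the spread was narrower at 30 min. Their medians under equal spread or quantile normalization were not computed, so the part of scaling was not tested.

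**Figure D2:**
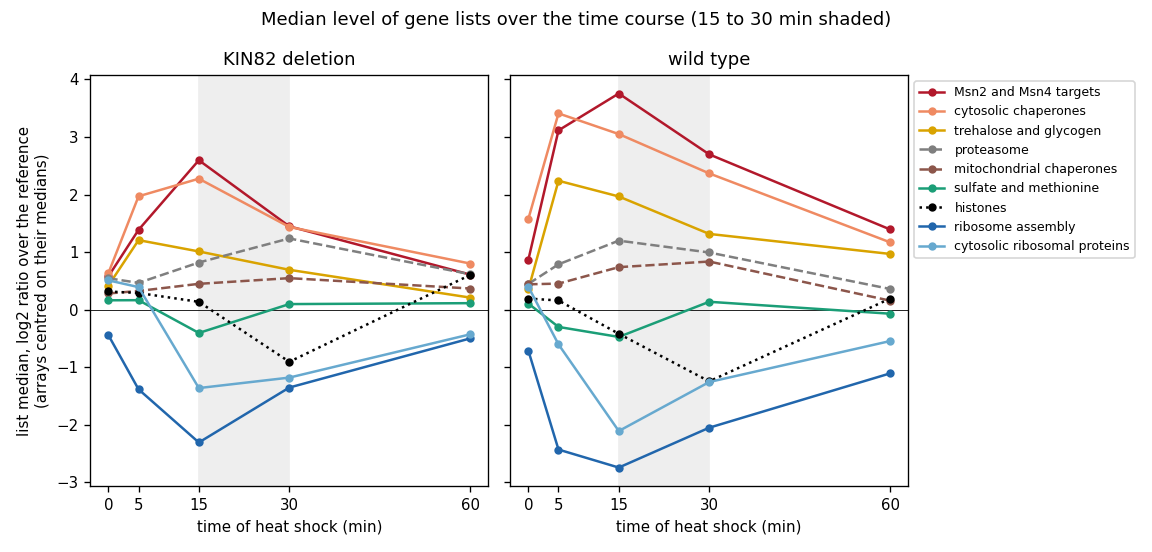
Median log2 ratio over the reference of 9 gene lists at 0, 5, 15, 30 and 60 min of heat shock in the deletion (left) and in the wild type (right), 1 array per point. Across the shaded step the Msn2 and Msn4 targets, chaperones, trehalose and glycogen genes and histones end lower than they began, and ribosome assembly, ribosomal protein and methionine genes end higher, in both strains.

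Of the lists described, ribosome assembly had the most calls. Of 138 assembly factors and nucleolar ribonucleoproteins tested, 16 rose and none fell, against 0.841% and 0.508% of all genes. The list median of the difference was 0.92 in the deletion and 0.66 in the wild type, and 122 of the 138 (88.4%) were above 0 in both strains, against 29.7% of all genes. The return was partial: 73 of the 138 were called lower than at 0 min at 30 min, against 119 at 15 min, where 8.1% of all genes were lower at 30 min and 13.8% at 15 min. With quantile normalization the list median was 0.25 in the deletion and -0.01 in the wild type, and with equal spread it was 0.39 over both strains.

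DIP2 and NAN1 encode subunits of the small subunit processome, the particle that folds and cuts the early precursor of the small ribosomal subunit. DIP2 stood at -1.40 in the deletion and -2.02 in the wild type at 30 min, against -3.79 in the deletion and -4.26 in the wild type at 15 min. Both 30 min arrays lay above both 15 min arrays, and the difference was 2.32 ± 0.32 (SE, limma adjusted p = 0.00965). NAN1 stood at -1.59 in the deletion and -3.10 in the wild type at 30 min, against -4.43 in the deletion and -4.87 in the wild type at 15 min, a difference of 2.31 ± 0.40 (SE, limma adjusted p = 0.0133). Here too the times did not overlap, and in both genes the deletion array was the higher of the 30 min pair. BMS1, a GTPase of the same particle, and KRE33, an acetyltransferase that modifies ribosomal RNA and tRNA, rose by 1.73 ± 0.33 and 1.94 ± 0.43.

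On the large subunit branch, NSA2, a factor bound to precursors of the large subunit, stood at -1.49 in the deletion and -2.87 in the wild type at 30 min, against -3.10 in the deletion and -5.70 in the wild type at 15 min. The wild type was the lower strain at both times, yet both 30 min values were above both 15 min values, and the difference was 2.22 ± 0.44 (SE, limma adjusted p = 0.0234). ERB1, which acts in cutting the large subunit precursor RNA, stood at -1.92 in the deletion and -3.14 in the wild type at 30 min, against -3.67 in the deletion and -4.77 in the wild type at 15 min, a difference of 1.69 ± 0.32 (SE, limma adjusted p = 0.0204). NOC2, MAK5, SPB1, RSA4, NOP15 and MRT4, all assembly factors of the same subunit, also rose, by between 1.35 ± 0.30 (MRT4) and 1.60 ± 0.34 (MAK5). For MAK5 and RSA4 the wild-type 30 min array was below the deletion 15 min array, so these were separated within strains only.

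The nucleolar ribonucleoproteins that guide chemical modification of ribosomal RNA gave 4 rises among 17 genes, against 0.841% of all genes. CBF5, the pseudouridine synthase of the box H/ACA particles, stood at -1.75 in the deletion and -1.83 in the wild type at 30 min, against -3.92 in the deletion and -4.07 in the wild type at 15 min. Its partner GAR1 stood at -1.76 in the deletion and -1.22 in the wild type at 30 min, against -3.35 in the deletion and -3.47 in the wild type at 15 min. In both genes the strains were close at each time and the times were well apart, with differences of 2.20 ± 0.45 (SE, limma adjusted p = 0.028) for CBF5 and 1.92 ± 0.40 (SE, limma adjusted p = 0.0333) for GAR1. NOP56, a core protein of the box C/D particles, rose by 2.16 ± 0.42, and FPR4, a nucleolar prolyl isomerase, by 2.30 ± 0.50. FPR4 had the largest standard error of the 77 genes: at 15 min it stood at -2.64 in the deletion and -5.30 in the wild type.

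**Figure D3:**
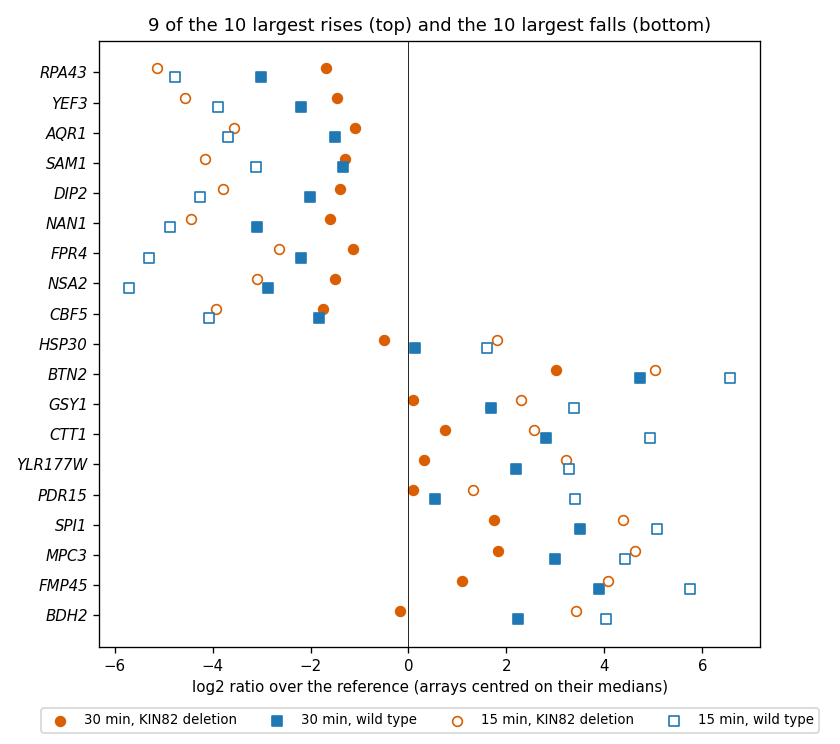
Of the 10 genes with the largest rises from 15 to 30 min, 9 are shown, with the 10 of the largest falls, as log2 ratios over the reference on the 4 arrays. Filled symbols are 30 min and open symbols 15 min, with circles for the deletion and squares for the wild type. The filled symbols lie between the open symbols and 0 in most of these genes.

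RNA polymerase I transcribes the large ribosomal RNA, and RNA polymerase III transcribes tRNA and the smallest ribosomal RNA. Their subunits and factors gave 3 rises among 35 tested and no fall, against 0.841% and 0.508% of all genes. RPA43, a polymerase I subunit, had the largest rise of all genes. It stood at -1.69 in the deletion and -3.00 in the wild type at 30 min, against -5.12 in the deletion and -4.76 in the wild type at 15 min, so it was higher by 2.59 ± 0.37 (SE, limma adjusted p = 0.00965), which is 6.04-fold. At 30 min it was still -1.49 from its 0 min level. RPA135, the second-largest subunit of polymerase I, stood at -2.001 in the deletion and -2.18 in the wild type at 30 min, against -3.80 in the deletion and -3.57 in the wild type at 15 min. RPC40, which both polymerases share, stood at -1.14 in the deletion and -2.30 in the wild type at 30 min, against -3.44 in the deletion and -3.33 in the wild type at 15 min. All 3 genes were separated between the times in both strains, with differences of 1.59 ± 0.31 for RPA135 and 1.66 ± 0.38 for RPC40. RET1, a polymerase III subunit, gave 1.36 ± 0.32 with a limma adjusted p of 0.0523 and was not called.

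Of 24 elongation and termination factors, 4 rose and none fell, against 0.841% and 0.508% of all genes. YEF3 encodes elongation factor 3, which yeast needs for chain elongation. It stood at -1.46 in the deletion and -2.19 in the wild type at 30 min, against -4.56 in the deletion and -3.89 in the wild type at 15 min. The difference was 2.40 ± 0.36 (SE, limma adjusted p = 0.0101), and at 30 min YEF3 was still -2.68 from its 0 min level. NEW1 (translation factor related to YEF3), RLI1 (ribosome recycling) and RBG1 (a ribosome-associated GTPase) rose by 1.93 ± 0.38, 1.84 ± 0.34 and 1.62 ± 0.36. No gene passed among 30 initiation factors, although 24 were above 0 in both strains. PRT1 and TIF34, subunits of initiation factor 3, gave 1.37 ± 0.36 and 1.13 ± 0.34 with limma adjusted p of 0.0744 and 0.116.

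The tRNA enzymes gave 3 rises among 30 modification genes and 1 among 20 aminoacyl-tRNA synthetases, against 0.841% of all genes. ELP3, the catalytic subunit of the Elongator complex that modifies wobble uridines, stood at -1.24 in the deletion and -1.88 in the wild type at 30 min, against -3.20 in the deletion and -3.28 in the wild type at 15 min, a difference of 1.68 ± 0.29 (SE, limma adjusted p = 0.0133). TYW1, of wybutosine synthesis, and DUS3, a dihydrouridine synthase, rose by 1.70 ± 0.30 and 1.83 ± 0.41. The synthetase that rose is YHR020W, the prolyl-tRNA synthetase, which stood at -0.32 in the deletion and -1.48 in the wild type at 30 min, against -2.51 in the deletion and -2.91 in the wild type at 15 min. CRS1, the cysteinyl-tRNA synthetase, missed the threshold at 1.49 ± 0.37 with a limma adjusted p of 0.057. ELP2, another Elongator subunit, and LIA1, the deoxyhypusine hydroxylase that activates a translation factor, were also among the 48 rises, with 1.48 ± 0.28 and 1.87 ± 0.38.

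Of the ribosomal proteins themselves, 3 of 134 rose and none fell. Against the 0 min arrays, 117 were called lower at 30 min and 129 at 15 min, against 8.1% and 13.8% of all genes at these times. The list median of the difference was 0.15 in the deletion and 0.91 in the wild type, and 82 of the 134 (61.2%) were above 0 in both strains, against 29.7% of all genes. Under quantile normalization the deletion median was -0.21 and the wild-type median 0.25, and under equal spread they were -0.02 in the deletion and 0.55 in the wild type, so a direction in the deletion is not set. The 3 that rose were RPL5, which binds the smallest ribosomal RNA, and the paralogues RPL27A and RPL27B, whose probes may not separate them. RPL5 stood at -0.52 in the deletion and -1.82 in the wild type at 30 min, against -2.35 in the deletion and -2.99 in the wild type at 15 min, a difference of 1.502 ± 0.32 (SE, limma adjusted p = 0.038). No small subunit protein passed among 53, and RPS0B came nearest with 1.40 ± 0.34 and a limma adjusted p of 0.0566.

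On the stress side, the targets of Msn2 and Msn4 gave 4 falls and no rise among 43 genes, against 0.508% and 0.841% of all genes. The list median of the difference was -0.995 in the deletion and -0.72 in the wild type, and 36 of 43 were below 0 in both strains (83.7%, against 29.1% of all genes). The median change from the 0 min arrays, over both strains, was 1.20 at 30 min, against 2.05 at 15 min, and 21 genes were called higher than at 0 min at 30 min, against 33 at 15 min, where 4.32% of all genes were higher at 30 min and 9.49% at 15 min. Equal spread and quantile normalization kept the sign of the list median, at -0.42 and -0.22.

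CTT1, the cytosolic catalase and a standard reporter of this programme, stood at 0.75 in the deletion and 2.82 in the wild type at 30 min, against 2.56 in the deletion and 4.93 in the wild type at 15 min. The wild type at 30 min was above the deletion at 15 min, so the times were separated within strains only, and the difference was -1.96 ± 0.36 (SE, limma adjusted p = 0.0204). SPI1, a cell wall protein induced by stress, stood at 1.74 in the deletion and 3.50 in the wild type at 30 min, against 4.37 in the deletion and 5.07 in the wild type at 15 min, a difference of -2.10 ± 0.31 (SE, limma adjusted p = 0.00965) with no overlap of the times. MSC1, a poorly understood stress gene, fell by 1.33 ± 0.30. Its wild-type 30 min array was above its deletion 15 min array, so it too was separated within strains only. HSP30, a small membrane protein that restrains the plasma membrane proton pump, fell by 1.89 ± 0.32. It differs from the other 3 in that it was not called at 15 min, where it was -0.59 from its 0 min level. At 30 min it was -2.48 from that level. HSP30 had been called higher at 5 min, at 1.24 from its 0 min level. It was then called lower from 5 to 15 min, with a difference of -1.83. Its 0 min level over the reference was 2.60 in the deletion and 1.99 in the wild type.

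Of 30 cytosolic chaperones and co-chaperones, 1 fell and none rose. Their direction from 0 to 15 min was used to set the direction of the ratio, so it is not independent evidence. The list median was -0.75 in the deletion and -0.74 in the wild type. Below 0 in both strains were 23 genes (76.7%), against 29.1% of all genes. The median change from 0 min was 0.44 at 30 min, against 1.27 at 15 min. Equal spread and quantile normalization gave list medians of -0.35 and -0.18. The median level in the wild type was 1.575 at 0 min, 3.41 at 5 min and 3.05 at 15 min, so it had turned before this step. In the deletion it was 0.635, 1.97 and 2.275 at these times. The called gene, BTN2, directs misfolded proteins to sequestration sites. It stood at 3.01 in the deletion and 4.73 in the wild type at 30 min, against 5.03 in the deletion and 6.57 in the wild type at 15 min, a difference of -1.93 ± 0.39 (SE, limma adjusted p = 0.0243) with the times separated. From its 0 min level BTN2 was 1.10 at 15 min, which was not called (limma adjusted p = 0.0526). At 30 min it was -0.14 from that level in the deletion and -1.51 in the wild type. That level was itself above the reference, at 3.15 in the deletion and 6.24 in the wild type. HSP42, a small heat shock protein of the same sorting route, FES1, an Hsp70 exchange factor, and SIS1, an Hsp40 partner of Hsp70, gave -1.35 ± 0.32, -1.59 ± 0.39 and -1.54 ± 0.38, with limma adjusted p of 0.0515, 0.057 and 0.0602, and were not called.

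Storage carbohydrate genes gave 2 falls and no rise among 22, against 0.508% and 0.841% of all genes. The list medians of the difference were -0.43 in the deletion and -0.69 in the wild type. Below 0 in both strains were 13 of the 22 (59.1%), against 29.1% of all genes. The median level was already lower at 15 than at 5 min. It was 1.01 against 1.21 in the deletion and 1.97 against 2.24 in the wild type. GSY1, a glycogen synthase, stood at 0.09 in the deletion and 1.69 in the wild type at 30 min, against 2.29 in the deletion and 3.38 in the wild type at 15 min. The strains differed in level at both times, but both 30 min arrays were below both 15 min arrays. The difference was -1.95 ± 0.30 (SE, limma adjusted p = 0.0102). GSY1 was called higher at 5 min, at 1.38 from its 0 min level, but not at 15 min, where it was 0.495 from it. At 30 min it was -1.45 from that level and was called lower than at 0 min. UGP1, which makes the UDP-glucose used for glycogen and trehalose, stood at 1.55 in the deletion and 2.32 in the wild type at 30 min, against 3.44 in the deletion and 3.68 in the wild type at 15 min, a difference of -1.63 ± 0.29 (SE, limma adjusted p = 0.016). GSY2, the other glycogen synthase, gave -1.51 ± 0.36 and TPS2, trehalose phosphate phosphatase, -1.15 ± 0.32, with limma adjusted p of 0.0539 and 0.0976. Among 34 genes against oxidants CTT1 was the only fall. EMI2, a hexokinase relative, fell by 1.32 ± 0.30, but no hexose transporter or hexokinase on the list of 18 passed, and HXT7, a high-affinity glucose transporter, gave -1.52 ± 0.36 with a limma adjusted p of 0.0547.

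**Figure D4:**
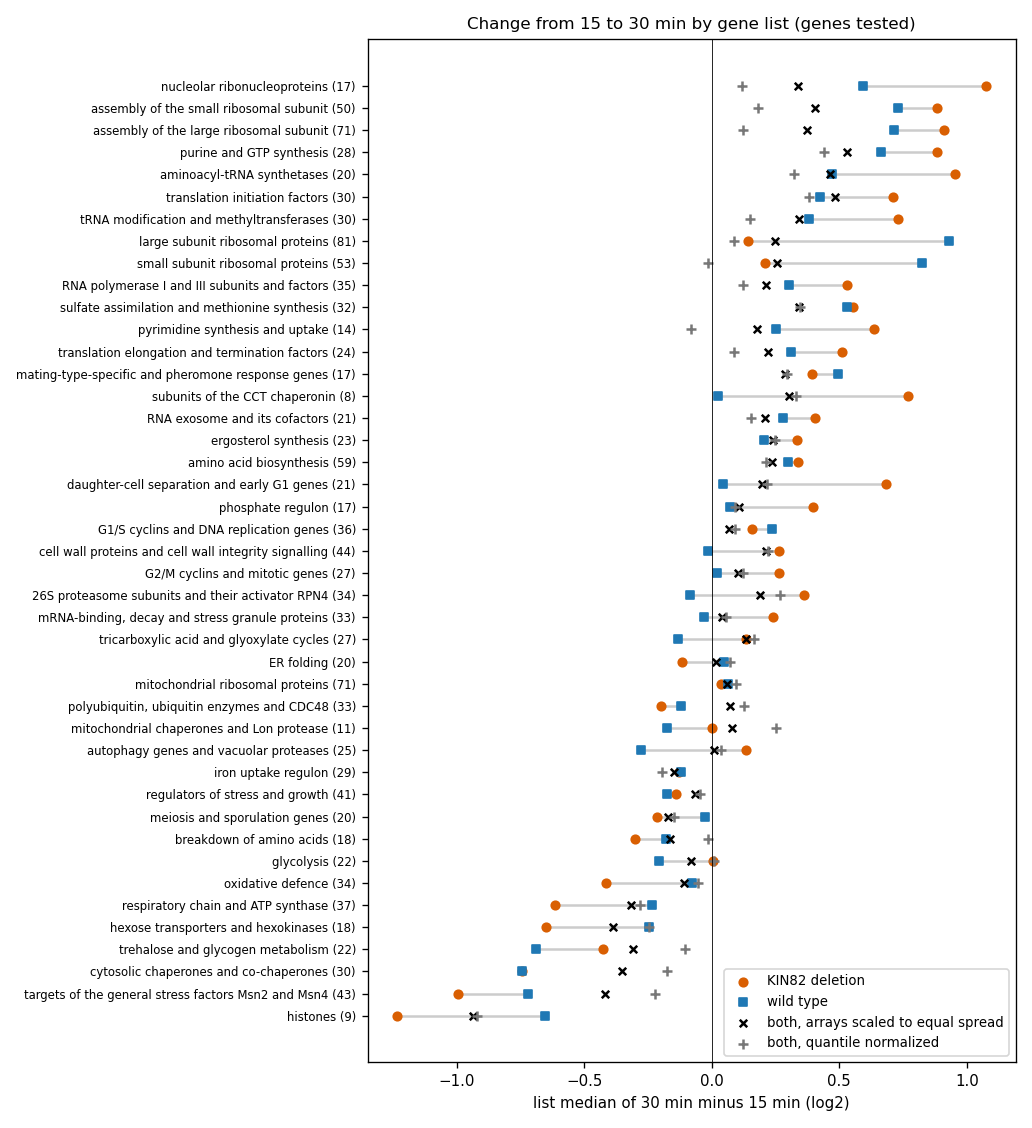
Median difference between 30 and 15 min, in log2 units, of 43 gene lists with the number of genes tested in each, in the deletion (circles) and in the wild type (squares). Crosses and plus signs give the median over both strains after arrays were scaled to equal spread and after quantile normalization, and most of them lie nearer 0 than the strain medians.

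Of the 10 largest falls, 5 have been described above as list members. Of the others, BDH2, related to butanediol dehydrogenase, stood at -0.17 in the deletion and 2.24 in the wild type at 30 min, against 3.42 in the deletion and 4.03 in the wild type at 15 min. Its deletion value at 30 min was well below the other 3, and the difference was -2.69 ± 0.40 (SE, limma adjusted p = 0.00965), or 6.44-fold lower. FMP45, a membrane protein of the cell cortex with no 0 min value here, fell by 2.42 ± 0.43. MPC3, a subunit of the mitochondrial pyruvate carrier, stood at 1.83 in the deletion and 2.98 in the wild type at 30 min, against 4.63 in the deletion and 4.42 in the wild type at 15 min, a difference of -2.12 ± 0.39 (SE, limma adjusted p = 0.0194). PDR15, a transporter of the multidrug resistance family, and 3 genes named after their values were seen, PNS1, a membrane protein, NCE103, carbonic anhydrase, and ATO2, an ammonium and acetate transporter relative, fell by 2.05 ± 0.39, 1.84 ± 0.32, 1.54 ± 0.35 and 1.80 ± 0.36. CAR1, arginase, was the 1 fall among 18 genes of amino acid breakdown, at -1.43 ± 0.31. ARO9, an aromatic aminotransferase, gave -1.26 ± 0.39 with a limma adjusted p of 0.125. LST8, a subunit of the TOR kinase complexes that govern growth, fell by 1.78 ± 0.34 and stood 0.08 from its 0 min level at 30 min.

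Among the metabolic lists, sulfate assimilation and methionine synthesis had the most rises, 5 of 32 genes, with no fall. Of all genes, 0.841% were called higher and 0.508% lower. The list median was 0.55 in the deletion and 0.53 in the wild type, and equal spread and quantile normalization kept it at 0.34 and 0.35. SAM1, which makes S-adenosylmethionine, stood at -1.30 in the deletion and -1.33 in the wild type at 30 min, against -4.16 in the deletion and -3.11 in the wild type at 15 min, a difference of 2.32 ± 0.36 (SE, limma adjusted p = 0.0102). Its paralogue SAM2 stood at 0.31 in the deletion and 0.48 in the wild type at 30 min, against -1.22 in the deletion and -0.78 in the wild type at 15 min, a difference of 1.40 ± 0.33 (SE, limma adjusted p = 0.0485). MUP1, the high-affinity methionine permease, stood at 1.61 in the deletion and 0.82 in the wild type at 30 min, against -0.39 in the deletion and -0.85 in the wild type at 15 min, a difference of 1.83 ± 0.30 (SE, limma adjusted p = 0.0102). The times did not overlap in any of the 3. MUP1 and SAM2 were above the reference at 30 min, as they had been at 0 min. They stood -0.14 and -0.04 from their 0 min levels. MHT1, a homocysteine methyltransferase, and STR3, cystathionine beta-lyase, rose by 1.72 ± 0.30 and 2.03 ± 0.45.

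Other growth metabolism was represented by single genes. GUA1, GMP synthase, rose by 1.35 ± 0.30 and was the 1 call among 28 purine genes, but it remained -2.83 from its 0 min level. SHM2, which feeds one-carbon units to purines, gave 1.86 ± 0.49 with a limma adjusted p of 0.0755. MIS1, the mitochondrial enzyme of one-carbon metabolism, and MAE1, mitochondrial malic enzyme, rose by 1.92 ± 0.38 and 1.83 ± 0.40. AQR1, a plasma membrane exporter, and TAT1, an amino acid permease, rose by 2.33 ± 0.37 and 1.41 ± 0.28. PSA1, which makes the GDP-mannose used for cell wall mannoproteins, rose by 1.41 ± 0.31.

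Single genes of the division cycle and the cell wall rose as well. CLN2, a G1 cyclin that helps to start the division cycle, stood at -0.71 in the deletion and -1.37 in the wild type at 30 min, against -2.80 in the deletion and -2.43 in the wild type at 15 min. The difference was 1.57 ± 0.31 (SE, limma adjusted p = 0.0217), and at 30 min CLN2 was -0.05 from its 0 min level. SVS1, a wall protein of the same phase, rose by 1.83 ± 0.32, and these were the 2 calls among 36 genes of G1/S and replication. SCW10, a wall glucanase, rose by 1.85 ± 0.33 as the only call among 44 wall genes, and SCW11, a glucanase of daughter-cell separation, gave 1.58 ± 0.40 with a limma adjusted p of 0.0677. Of 17 mating genes none passed, and STE12, the pheromone response factor, gave 1.24 ± 0.33 with a limma adjusted p of 0.0769. No marker of mating type a, mating type alpha or sporulation was called, and a ratio to a reference does not give the absolute level of such markers.

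The histone genes stood further from their 0 min level at 30 min than at 15 min. All 9 differences were below 0 in both strains, against 29.1% of all genes. The list median was -1.23 in the deletion and -0.65 in the wild type, and equal spread and quantile normalization gave -0.94 and -0.92. HHF2, one of the genes for histone H4, was the 1 that passed. It stood at -1.87 in the deletion and -1.59 in the wild type at 30 min, against 0.34 in the deletion and -0.53 in the wild type at 15 min, a difference of -1.64 ± 0.32 (SE, limma adjusted p = 0.0209) with no overlap of the times. HHT2, HHF1 and HTA1 gave -1.28 ± 0.31, -1.19 ± 0.29 and -1.16 ± 0.34 with limma adjusted p of 0.0534, 0.057 and 0.102. Against 0 min, 8 of 9 histone genes were called lower at 30 min and 1 at 15 min, against 8.1% of all genes at 30 min and 13.8% at 15 min. From 30 to 60 min the list median of the difference was 1.73. Copies of each histone gene are near identical, so their probes may not separate them.

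**Figure D5:**
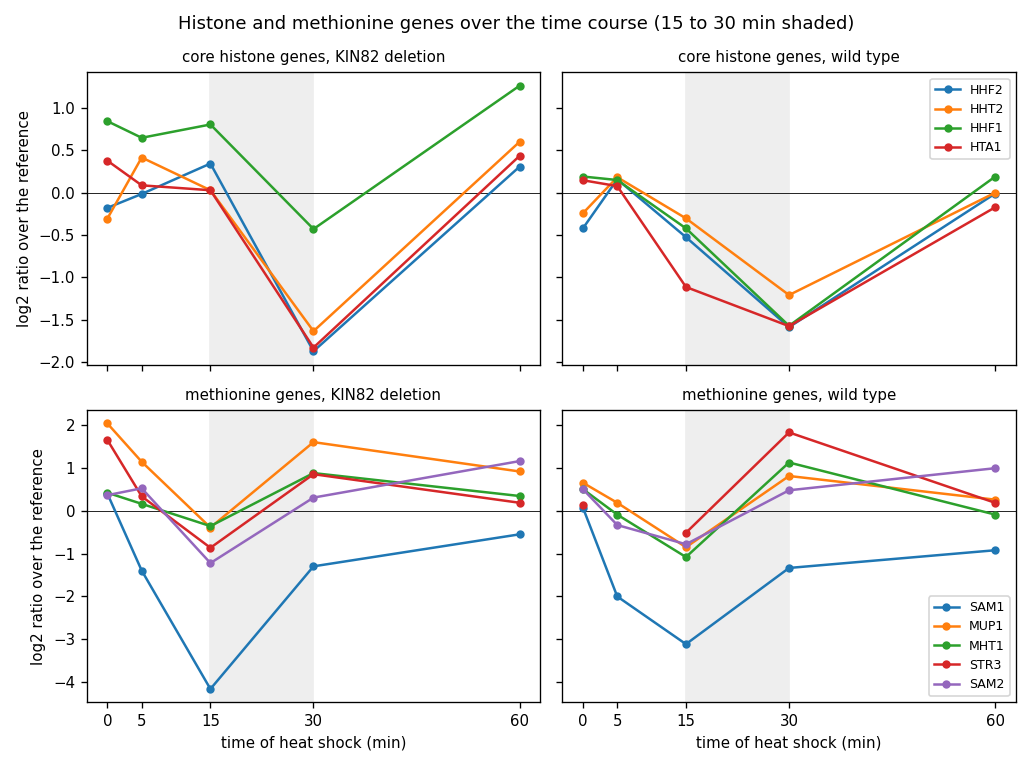
Log2 ratio over the reference of 4 histone genes (top) and 5 methionine genes (bottom) at 0, 5, 15, 30 and 60 min in the deletion (left) and in the wild type (right), 1 array per point; STR3 has no wild-type value at 5 min. Across the shaded step all 4 histone genes end lower and all 5 methionine genes end higher in both strains.

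Some genes held the level that they had reached by 15 min. Of 1157 genes called and at least 2-fold changed from 0 to 15 min, 239 had a 95% interval for the next step that lay within 2-fold either way, of which 105 were held high and 134 held low. Most of the 1157 were neither held by this rule nor among the 69 called genes that ran back. The median width of the 95% intervals over all genes was 0.66 to either side, and the smallest called difference was 1.21. A held gene could thus have moved by less than 2-fold without being seen. Among the 105, HSP10, the mitochondrial co-chaperonin, stood at 2.45 in the deletion and 2.28 in the wild type at 30 min, against 2.87 in the deletion and 2.46 in the wild type at 15 min, with an interval from -0.98 to 0.37. CIT1, citrate synthase, stood at 3.33 in the deletion and 3.12 in the wild type at 30 min, against 2.91 in the deletion and 3.71 in the wild type at 15 min, with an interval from -0.86 to 0.68. The list of the tricarboxylic acid and glyoxylate cycles (27 tested) had 10 genes called and at least 2-fold changed by 15 min. Of these 10, 5 were held high and 0 low, against 239 held of 1157 among all genes. CHA1 (serine and threonine breakdown), PST2 (an oxidative stress protein) and AVT6 (vacuolar amino acid export) were held as well, with differences of -0.07 ± 0.35, -0.31 ± 0.29 and -0.14 ± 0.30.

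Of 704 genes at least 2-fold lower at 15 min 19.0% were held low, and of 128 such ribosomal protein genes 26 (20.3%) were, so ribosomal protein genes were held at about the share of all. RPL9A stood at -2.32 in the deletion and -1.82 in the wild type at 30 min, against -2.03 in the deletion and -2.28 in the wild type at 15 min, and its interval ran from -0.61 to 0.78. RPS31, which encodes a ribosomal protein fused to ubiquitin, and RPL1A gave differences of -0.11 ± 0.39 and 0.29 ± 0.31. OLE1, the only fatty acid desaturase of yeast, stood at -1.96 in the deletion and -3.01 in the wild type at 30 min, against -2.31 in the deletion and -2.72 in the wild type at 15 min, and FAA4, a fatty acyl-CoA synthetase, gave 0.10 ± 0.37. The 34 proteasome genes gave no call, with list medians of 0.36 in the deletion and -0.09 in the wild type, and RPT2, a subunit of its base, gave 0.57 ± 0.33 with a limma adjusted p of 0.444.

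Of 41 regulators of stress and growth, 1 was called. CIN5, a bZIP factor of salt and drug resistance, stood at -1.08 in the deletion and 0.51 in the wild type at 30 min, against 1.24 in the deletion and 1.41 in the wild type at 15 min, a difference of -1.61 ± 0.34 (SE, limma adjusted p = 0.031). HSF1 gave -0.55 ± 0.40, MSN4 -0.60 ± 0.31, RPN4, the activator of proteasome genes, -0.36 ± 0.33, and SFP1, an activator of ribosomal genes, 0.24 ± 0.35, with limma adjusted p of 0.562, 0.37, 0.665 and 0.799. MSN2 was not tested here.

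The differences over this step were wider in the deletion than in the wild type, but no gene passed a test of the strain difference. The SD of the 30 min minus 15 min difference over genes was 0.737 in the deletion and 0.509 in the wild type, and 474 genes were at least 2-fold higher and 448 lower in the deletion, against 215 higher and 133 lower in the wild type. Of the 77 called genes, 56 moved further in the deletion. The strain by time term of limma called 0 of 5705 genes (0.0%), with 340 at an unadjusted p under 0.05. UBP5, a ubiquitin protease, had the lowest p: it stood at 3.73 in the deletion and 0.38 in the wild type at 30 min, against 0.36 in the deletion and 0.93 in the wild type at 15 min, and its strain difference of 3.91 had a limma adjusted p of 0.362. EGT2, an early G1 wall gene, stood at -0.35 in the deletion and -1.42 in the wild type at 30 min, against -2.83 in the deletion and -0.70 in the wild type at 15 min, with a strain difference of 3.21, and RPL29, a ribosomal protein, had -2.94. With 1 array per strain and time, an array that stands apart and a strain that does cannot be told apart.

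Beside the 77 genes called from 15 to 30 min, limma called 475 genes (8.34%) from 0 to 5 min, 372 (6.53%) from 5 to 15 min and 204 (3.58%) from 30 to 60 min. Against 0 min, 708 genes (12.4%) differed at 30 min and 1330 (23.3%) at 15 min. These intervals share arrays with one another, so their counts are set side by side with no test of the difference between them.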

How the data were processed

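Total RNA of 10 samples was measured on 10 arrays with 2 channels. The deposited values are ratios of the channels, read here as log2 values. The table does not name the base, the dyes, the background correction, the normalization or the filters, and the labels do not name them either. A natural logarithm would make every printed log2 value larger by 1.443 times. Of 5983 rows, 5484 matched a RefSeq entry (assembly R64) through their locus tags, 4986 carry a gene symbol, 997 are named by their systematic name, and 338 held at most 2 decimals.

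Each array was centred on its median (medians as deposited between -0.11 and -0.009 on the 4 arrays compared). Genes with a value on those 4 arrays and on at least 8 of the 10 were tested (5705, with 278 left out). limma 3.58.1 in R 4.3.3 (lmFit, eBayes) fitted time as a factor plus strain, which pairs the arrays within strain, on all 10 arrays, with 4 residual degrees of freedom and a prior of 10.9. The strain difference was 1 added term. P-values are two-sided and adjusted over all 5705 genes by Benjamini and Hochberg's method, and a gene was called under 0.05. The scripts were tested on simulated data. The number of arrays limits the precision.

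The comparison, the 43 gene lists and the rule for named genes were chosen with earlier results of these data known, so no list was tested. Named were the 10 largest rises and falls (1 of the rises is not reported here), up to 4 genes of lowest p per list, up to 5 held genes each way, the 4 lowest p of the strain difference and called or preset regulators. ATO2, ELP2, EMI2, LIA1, LST8, MAE1, MIS1, MRT4, NCE103, NOP15, PNS1, PSA1, RSA4, SAM2, SPB1 and TAT1 fell outside that rule and were named after their values were seen. Alternatives were other scalings, filters, fits and left-out arrays. Leaving out both arrays titled repeat was chosen after seeing the data.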

Additional observations from a re-analysis of the deposited data

Results flagged for a closer look

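In 8 gene lists the median difference between 30 and 15 min was above 0 in 1 strain and below 0 in the other. These strain differences were not tested, and each rests on 1 array per strain and time. The median of the deletion minus that of the wild type was 0.445 for the proteasome subunits and RPN4, with 0.36 in the deletion and -0.085 in the wild type. For autophagy genes and vacuolar proteases it was 0.411, and for cell wall genes 0.275. For mRNA-binding, decay and stress granule proteins it was 0.269, and for the tricarboxylic acid and glyoxylate cycles 0.268. Glycolysis gave 0.212, the mitochondrial chaperones 0.179 and folding in the endoplasmic reticulum -0.168, the only 1 of the 8 in which the wild type had the higher median.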

How the results depend on the processing

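The count of genes called from 15 to 30 min (77, with 48 higher and 29 lower) moved with most choices. It was 0 in each direction with quantile normalization, with arrays scaled to equal spread and with no strain term (no replicate block, 475 genes at an unadjusted p under 0.05), so no gene was called without the pairing within strain. The 4 arrays alone gave 260 (149 higher, 111 lower), eBayes with trend and robust 51 (33 and 18) and the fit without both arrays titled repeat 42 (23 and 19). Without centring it gave 89, with 71.9% of calls higher against 62.3%, and the median difference of all genes was then 0.0525. Leaving out 1 array at a time gave between 0 and 226 calls, between 0 and 135 higher and between 0 and 91 lower. The strain difference called 0 genes under every setting that could fit it. For the other intervals, quantile normalization gave 754 calls from 0 to 15 min, 144 from 0 to 5 min, 5 from 5 to 15 min and 53 from 30 to 60 min. Equal spread gave 175 from 5 to 15 min and 107 from 30 to 60 min. Without the strain term the counts were 52 from 0 to 5 min, 90 from 5 to 15 min, 0 from 30 to 60 min, 806 from 0 to 15 min and 242 from 0 to 30 min. Without both repeat arrays they were 199 from 0 to 5 min, 7 from 30 to 60 min, 782 from 0 to 15 min and 371 from 0 to 30 min, and trend and robust eBayes gave 124 from 30 to 60 min. Leaving out 1 array at a time gave 113 to 623 from 0 to 5 min, 128 to 566 from 5 to 15 min, 3 to 389 from 30 to 60 min, 707 to 1505 from 0 to 15 min and 227 to 878 from 0 to 30 min. The cause of these shifts was not tested.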

Other observations

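Respiratory genes gave no call among 37 (the respiratory chain and ATP synthase), yet 27 of them (73.0%) were below 0 in both strains, against 29.1% of all genes. The list median of 30 min minus 15 min was -0.62 in the deletion and -0.23 in the wild type, and the median change from 0 min was 0.23 at 30 min, against 0.71 at 15 min. ATP16, a subunit of ATP synthase, stood at 0.30 in the deletion and -0.27 in the wild type at 30 min, against 1.66 in the deletion and 0.77 in the wild type at 15 min, and its limma adjusted p was 0.0521. Genes of ergosterol synthesis, the sterol of yeast membranes, leaned the other way: none of 23 passed and 16 (69.6%) were above 0 in both strains, against 29.7% of all genes. ERG3, a sterol desaturase, stood at 0.27 in the deletion and -0.36 in the wild type at 30 min, against -0.97 in the deletion and -1.87 in the wild type at 15 min, with a limma adjusted p of 0.0967.

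Mitochondrial ribosomal proteins gave no call among 71, with list medians of 0.04 in the deletion and 0.07 in the wild type. Of 29 iron uptake genes none passed, and FIT2, a cell wall mannoprotein that binds iron carriers, stood at 0.39 in the deletion and 2.63 in the wild type at 30 min, against 2.15 in the deletion and 3.34 in the wild type at 15 min, with a limma adjusted p of 0.0761. Of 17 genes of the phosphate regulon none passed, and PHO84, the high-affinity phosphate transporter, stood at -1.39 in the deletion and -2.07 in the wild type at 30 min, against -3.19 in the deletion and -3.01 in the wild type at 15 min, with a limma adjusted p of 0.116. ACO1, the aconitase of the tricarboxylic acid cycle, stood at 3.72 in the deletion and 3.34 in the wild type at 30 min, against 1.21 in the deletion and 2.78 in the wild type at 15 min. Its difference of 1.53 ± 0.44 came mostly from the deletion and had a limma adjusted p of 0.1.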
